A study of Mus musculus and blank sample with 91 samples.

Results

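The gut bacteria of mice with experimental autoimmune encephalomyelitis (EAE) were compared with those of mice that had received adjuvant alone, from fecal pellets taken at 19 days post immunization (dpi). The samples labelled EAE (MOG+CFA) and CFA at 19 dpi were taken, 6 mice each, which makes 12 of the 91 samples of the series. The same treatments at -2 dpi, before any mouse was immunized, gave another 12 samples against which each difference was set. All were female C57BL/6 mice, 8 weeks old when bought. EAE mice received myelin oligodendrocyte glycoprotein (MOG) peptide in Complete Freund's Adjuvant, and pertussis toxin on days 0 and 2. CFA mice received the adjuvant only as the labels read, so the MOG peptide and the toxin both differ between the groups and their parts cannot be told apart. Mice lived 2 or 3 to a cage and a cage received 1 treatment. Mice of a cage share microbes, the cages are not given for each mouse, and cage and treatment cannot be told apart. Mice were treated as independent although some shared a cage, so p-values over them may be too small. Naïve mice, 6 at each day, received no treatment and their values are given as a background with no test.

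EAE models multiple sclerosis: T cells primed against myelin enter the central nervous system and cause an ascending paralysis. The mouse gut is filled mainly by Firmicutes and Bacteroidetes, which ferment fibre, host mucus and food protein. Lactobacilli live high in the gut and make lactic acid, Clostridia such as the Ruminococcaceae and Lachnospiraceae degrade fibre and include most makers of butyrate, Prevotella and its relatives take apart plant polysaccharides, and Akkermansia feeds on mucin. Bacteria were identified here from 16S rRNA gene amplicons of variable regions V3 and V4, and each distinct amplicon sequence is called an amplicon sequence variant (ASV). A percent below is a share of all counts of a mouse, so a fall of an abundant group and a rise of the others cannot be told apart, and neither can fewer bacteria and less DNA per bacterium.

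The 24 EAE and CFA samples held 15279 to 93736 counts, with a median of 52897.5. The EAE mouse labelled 595 had the lowest total at 19 dpi and only 25 ASVs, against 42864 counts in the next lowest EAE mouse, and results are given without it where that matters. The lowest count above 0 of any ASV in these samples was 2, the 5th percentile was 46 and the median was 510, so a taxon at 0 may have been present below what the inference of ASVs reports. A second library stood apart before immunization. The EAE mouse labelled 550 at -2 dpi held 52 variants, of which 13 were found in CFA mice and in no other EAE mouse of that day, and these made up 16.2% of its counts. The other 5 EAE mice held 1 or 2 such variants each. By genus percents its median Bray-Curtis distance, which runs from 0 for equal to 1 for disjoint communities, was 0.237 to the CFA mice and 0.326 to the other EAE mice. Many ASVs differed only at the 4 ambiguous positions of the primers, so ASVs equal between the primers were also summed to merged variants, named below by species and a number.

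At 19 dpi the EAE and CFA mice held different communities, and before immunization the difference was smaller. The median Bray-Curtis distance of genus percents from an EAE to a CFA mouse was 0.645 at 19 dpi, with a range of 0.409 to 0.887 over 36 pairs. Within the groups the medians were 0.434 among EAE mice and 0.318 among CFA mice. At -2 dpi the median between the groups was 0.326, no higher than the 0.326 among EAE mice. The treatment accounted for 51.7% of the squared distance at 19 dpi (exact permutation test, one-sided, p = 0.00216) and for 18.6% at -2 dpi (exact permutation test, one-sided, p = 0.0541). The share before immunization depended on the measure. It did not pass with families, at 14.3% (p = 0.18, exact), or with ASVs as deposited, at 9.18% (p = 0.452, exact). It passed with merged variants, at 19.2% (p = 0.0281, exact), by Aitchison distance, at 17.6% (p = 0.013, exact), and by presence alone (Jaccard distance), at 17.7% (p = 0.0108, exact), and without EAE mouse 550, an alternative added after the data were seen, it was 25.5% (p = 0.0173, exact). From -2 to 19 dpi an EAE mouse moved by a median distance of 0.522 from its own earlier sample and a CFA mouse by 0.261, where the EAE numbers rest on the deposited sample table. To all samples of the same treatment at -2 dpi, its own included, the median distance was similar, 0.548 for EAE and 0.297 for CFA mice.

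**Figure D1:**
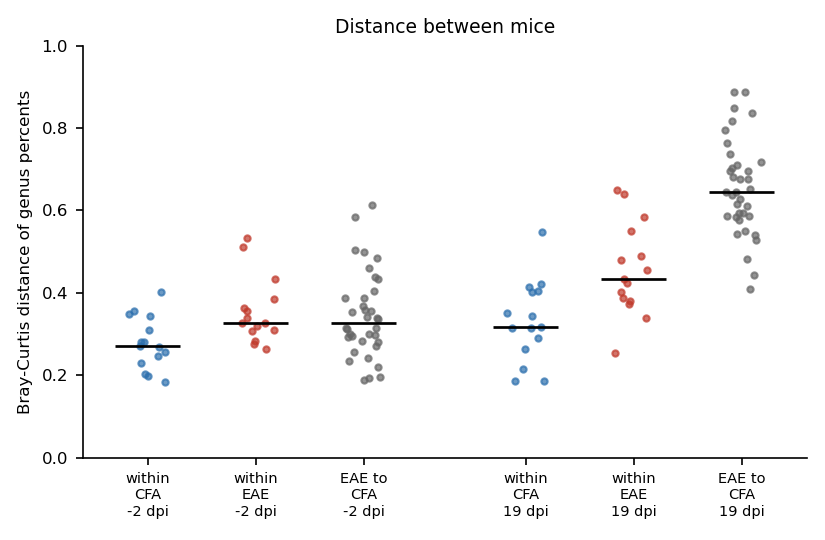
Bray-Curtis distance of genus percents for each pair of mice (points) within CFA, within EAE and between the 2 treatments at -2 and 19 dpi, with the median as a bar. The pairs of an EAE with a CFA mouse at 19 dpi have a median of 0.645, against 0.326 at -2 dpi.

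Families were compared in 2 ways, by an exact permutation test of the mean percent over mice and by edgeR's quasi-likelihood test on counts. By the exact test 6 of 17 families differed at 19 dpi (35.3%) and none of 17 at -2 dpi (0.0%), where 2 had an unadjusted p under 0.05 and edgeR called 2. In 5 of 23 families (21.7%) the EAE and CFA mice did not overlap at 19 dpi, and in none of 23 (0.0%) at -2 dpi. The change from -2 to 19 dpi differed between EAE and CFA mice for 5 of 17 families (29.4%), namely Lactobacillaceae, Ruminococcaceae, Clostridiaceae, Peptostreptococcaceae and Verrucomicrobiaceae. edgeR called 7 of 23 families at 19 dpi (30.4%), 2 of 23 at -2 dpi (8.7%) and 2 of 23 for the change (8.7%). The directions depend on the scale. By percents 4 of the 6 families were higher in EAE at 19 dpi and 2 lower, and as centred log ratios 3 were higher and 5 lower. For the change it was 4 and 1 by percents and 2 and 2 as centred log ratios. The smallest two-sided p that 6 mice against 6 can give for a difference in means is 0.00216. On medians in place of means no family or genus passed after adjustment. Several regroupings leave a difference in medians unchanged, so its smallest p is larger, and this outcome says little about the families and genera.

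Lactobacillaceae fell almost to nothing in EAE mice and kept their place in CFA mice. The family held 1 genus with counts, Lactobacillus, whose members ferment sugars to lactic acid and are among the most abundant bacteria of laboratory mice. At 19 dpi its percent was 0 in the lowest EAE mouse, 0.700 at the median and 6.34 in the highest. The CFA mice had 19.5, 37.8 and 52.3%, so the groups lay far apart. At -2 dpi the EAE mice had 19.7, 31.3 and 40.8% and the CFA mice 28.1, 34.4 and 58.7%, and the groups overlapped. The mean was 1.60% ± 2.4 in EAE against 36.6% ± 12.4 in CFA mice at 19 dpi (SD, n = 6 each), 22.8 times as high in CFA. Mouse 589 was the highest EAE mouse, and without it the EAE mean was 0.657% and the ratio 55.7. The difference passed the exact permutation test over families (adjusted p = 0.00736) and edgeR (adjusted p = 7.24e-06). Relative to the CFA mice the percent of EAE mice changed by -28.3 points from -2 to 19 dpi (exact permutation test, adjusted p = 0.0294), and edgeR called the change too (adjusted p = 0.00285, and 0.00346 with each mouse as a block). Naïve mice had 6.59, 22.6 and 38.1% at 19 dpi. The 1 EAE mouse with no lactobacilli was 595, and without it edgeR's adjusted p was 1.03e-05.

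Nearly all of these lactobacilli were 1 bacterium. Lactobacillus johnsonii variant 1 held 99.7% of the genus' counts in the 24 samples, written in the deposited table as 28 ASVs. It was found in 5 of 6 EAE mice at 19 dpi and in all 6 of each other group. Another 19 variants, assigned to L. johnsonii, L. gasseri or, without a choice between them, L. johnsonii/taiwanensis, occurred in 1 or 2 mice of a group at most, and the highest of them averaged 0.0463% over the 24 samples. In the exact permutation test over merged variants (added after the data were seen) its adjusted p at 19 dpi was 0.0294, with every EAE mouse below every CFA mouse.

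**Figure D2:**
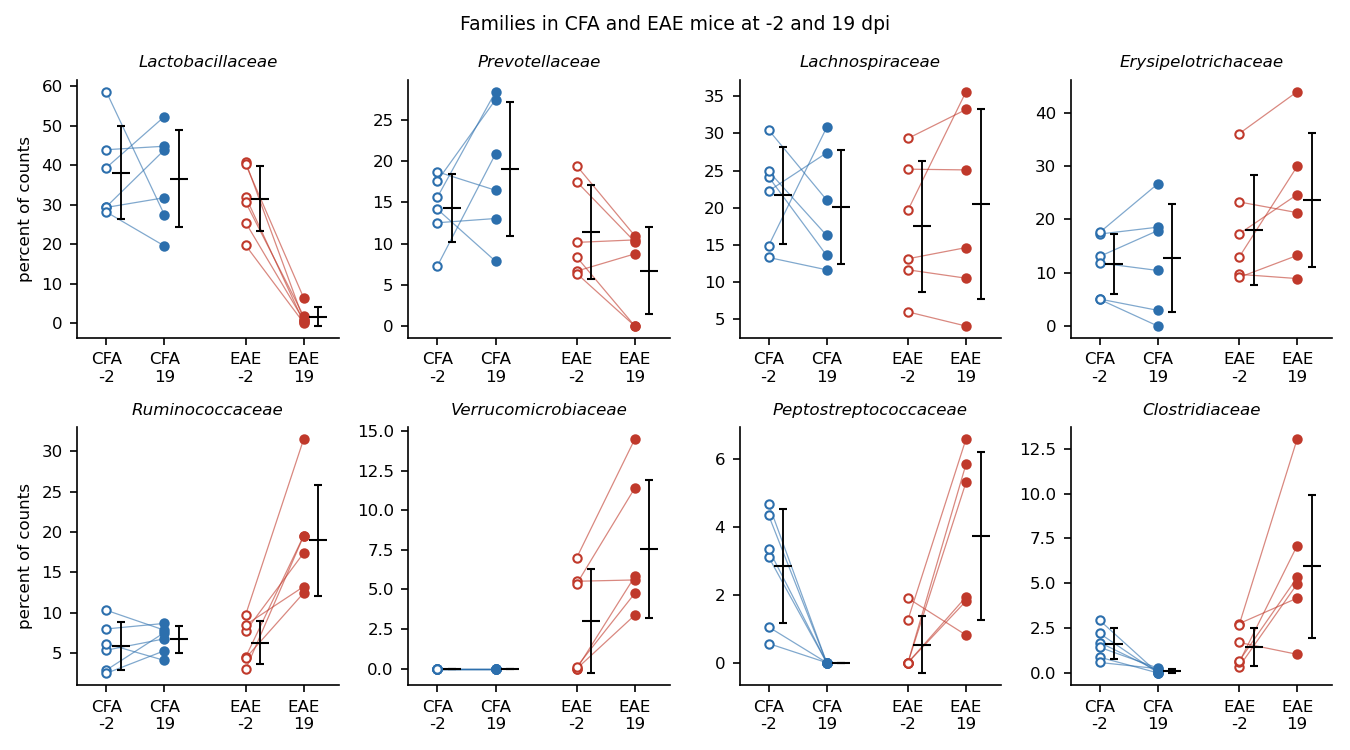
Percent of counts of 8 families in each mouse (points) of CFA and EAE at -2 dpi (open) and 19 dpi (filled), with lines joining the samples of a mouse and black bars for the mean ± SD, n = 6. Lactobacillaceae of EAE mice run from 19.7 to 40.8% before and from 0 to 6.34% after, while Peptostreptococcaceae of CFA mice go from 0.565 to 4.68% to 0 in all 6.

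Prevotellaceae, which degrade plant polysaccharides, were also lower in EAE mice, with less support. All of their counts were assigned to Prevotella. EAE mice had 0, 9.48 and 10.9% at 19 dpi and CFA mice 7.85, 18.7 and 28.4%, with EAE mice 591 and 595 at 0. The groups overlapped in a narrow band. Before immunization the EAE mice had 6.36, 9.24 and 19.4% and the CFA mice 7.29, 14.9 and 18.7%. The mean differed by -12.3 points at 19 dpi (exact permutation test, adjusted p = 0.0429), edgeR did not call it (adjusted p = 0.307), and the change from -2 dpi did not pass (exact permutation test, adjusted p = 0.141). The name matters here. Barnesiella, in another family of the same order, took 36348 counts, all of them from primer copies of Prevotella_NA variant 1, so the 2 genera share a sequence. With 1 name per merged variant, an alternative added after the data were seen, 5 of the 6 families kept their call by the exact test and Prevotellaceae had an adjusted p of 0.0866. The order Bacteroidales as a whole held 14.0% at the median of EAE mice and 20.7% at that of CFA mice.

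Romboutsia, a spore-forming gut Clostridium relative and the only genus here of the Peptostreptococcaceae, changed in opposite directions in the 2 groups. At 19 dpi all 6 EAE mice held it, at 0.814, 3.63 and 6.60%, and no CFA mouse did. Against a floor of 3 counts per CFA library the mean was at least 605-fold higher in EAE. At -2 dpi the order was the other way round. All 6 CFA mice held it then, at 0.565, 3.24 and 4.68%, and 2 EAE mice, with a highest value of 1.90%. Tested as the family, the difference before immunization had an adjusted p of 0.184 by the exact permutation test and did not pass. The family's difference at 19 dpi did (exact permutation test, adjusted p = 0.00736, and edgeR, adjusted p = 0.00297). So did the family's change per mouse of 6.05 points relative to CFA (exact permutation test, adjusted p = 0.0276, and edgeR, adjusted p = 0.00285). Among genera Romboutsia did not pass the exact test for the change, and edgeR called it (adjusted p = 0.00729). From -2 to 19 dpi the number of mice with Romboutsia went from 6 to 0 in CFA and from 2 to 6 in EAE. Among naïve mice none held Romboutsia at 19 dpi and 1 did at -2 dpi. All of its counts belonged to Romboutsia timonensis variant 1.

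Clostridium_sensu_stricto_1, the genus of the true clostridia and most of the Clostridiaceae here, followed the same course at 19 dpi but started level. EAE mice had 1.04, 4.59 and 13.0% at 19 dpi. Among CFA mice 1 held it, at 0.125%, and the other 5 were at 0, so no EAE mouse overlapped with a CFA mouse. Before immunization all 6 mice of both groups held it, at 0.345, 1.06 and 2.75% in EAE and 0.410, 1.56 and 2.93% in CFA mice. The mean at 19 dpi was 274 times as high in EAE (exact permutation test over genera, adjusted p = 0.0216), which edgeR did not call (adjusted p = 0.0618). With each mouse as a block edgeR called the change (adjusted p = 0.00221), and without the block it did not (adjusted p = 0.122). The family Clostridiaceae, named after its values were seen, averaged 5.94% ± 4.01 in EAE and 0.106% ± 0.126 in CFA mice (SD, n = 6 each; exact permutation test, adjusted p = 0.00736 at 19 dpi and 0.0245 for the change). The leading variant was assigned to Clostridium celatum/disporicum and held 98.6% of the genus' counts. Naïve mice had 0, 1.26 and 2.85% of the genus at 19 dpi.

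Akkermansia, the mucin degrader of the gut and the only genus of the Verrucomicrobiaceae, separated the groups completely at 19 dpi, but it did so in part before immunization. EAE mice had 3.38, 5.71 and 14.5% at 19 dpi, and no CFA mouse held any, which makes it at least 1229-fold higher in EAE against the floor of 3 counts. At -2 dpi 4 EAE mice held it, with a median of 2.74 and a highest value of 7.01%, and again no CFA mouse did. Naïve mice had 7.46, 14.7 and 31.5% at 19 dpi, and 5 of 6 held it at -2 dpi. CFA mice were thus the group without Akkermansia at both days. Tested as the family, edgeR called the difference at both days, with adjusted p-values of 5.68e-04 at 19 dpi and 0.00173 before. It did not call the change (adjusted p = 1). In percent points the EAE mice gained 4.57 relative to CFA, which passed over families (exact permutation test, adjusted p = 0.0184). The same gain did not pass over genera (exact permutation test, adjusted p = 0.0541). edgeR and the exact test ask different questions where a group is at 0 at both days. A ratio to 0 cannot change while a difference from it can.

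Ruminococcaceae, fibre-degrading Clostridia with several makers of butyrate, took a larger share in every EAE mouse than in any CFA mouse at 19 dpi. EAE mice had 12.5, 18.5 and 31.5%, and CFA mice 4.09, 7.15 and 8.67%. At -2 dpi they had 2.98, 6.12 and 9.75% and 2.49, 5.76 and 10.3%, which overlapped almost fully. The mean was 2.83 times as high in EAE at 19 dpi (exact permutation test, adjusted p = 0.00736) and the change was 11.8 points (exact permutation test, adjusted p = 0.0184). This result depends on the scale. edgeR's scaling factors (TMMwsp) put all taxa of EAE against CFA lower by 0.87 on the log2 scale at 19 dpi than total counts do. On it the fitted log2 fold change was 0.54 (adjusted p = 0.468), on total counts it was 1.5 (adjusted p = 0.0184), and as a centred log ratio it was -0.12. The larger share is a measured fact, and whether the family grew relative to the other bacteria was not settled by these scales.

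Among the genera of that family, 3 were higher in EAE mice by the exact permutation test over genera. Ruminococcus, which breaks down cellulose and starch, had 2.71, 4.36 and 5.42% in EAE and 0.562, 1.52 and 2.83% in CFA mice (adjusted p = 0.0361, exact). Acutalibacter had 0.660, 1.47 and 2.47% against 0, 0.157 and 0.561%, with no overlap (adjusted p = 0.0216, exact). Candidatus_Soleaferrea/Massilioclostridium had 0.460, 0.798 and 3.21% against 0, 0.115 and 0.578% (adjusted p = 0.0464, exact). All 3 overlapped before immunization, with adjusted p-values of 1 at -2 dpi by the exact test, and edgeR called none of them at 19 dpi. The last 2 were named after their values were seen. Ruminococcaceae_UCG-014, the most abundant genus of the family, averaged 5.80% ± 4.16 in EAE and 2.03% ± 0.834 in CFA mice (SD, n = 6 each) and did not pass (exact permutation test, adjusted p = 0.0541).

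The other 2 large families did not pass on percents or in edgeR. Lachnospiraceae, the main butyrate-making family of Clostridia, had 4.10, 19.9 and 35.6% in EAE and 11.7, 18.7 and 30.8% in CFA mice at 19 dpi (exact permutation test, adjusted p = 1; edgeR adjusted p = 0.468). Erysipelotrichaceae, nearly all Turicibacter, a spore former of the small intestine, had 8.90, 23.0 and 43.9% in EAE and 0, 14.2 and 26.7% in CFA mice (exact permutation test, adjusted p = 0.221; edgeR adjusted p = 1). The mean of Erysipelotrichaceae was 10.9 points higher in EAE at 19 dpi and 6.43 points higher at -2 dpi. Both directions turn with the scaling. The log2 fold change of Erysipelotrichaceae was -0.21 with edgeR's factors and 0.89 on total counts, and that of Lachnospiraceae -0.71 and 0.03. As a centred log ratio Lachnospiraceae passed as lower in EAE, at -1.80 (exact permutation test, adjusted p = 0.0123).

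At the level of genera edgeR called 7 of 65 at 19 dpi (10.8%), of which 5 were higher and 2 lower in EAE, and 2 of 65 at -2 dpi (3.08%). Lactobacillus and Stomatobaculum were lower, and Akkermansia, Romboutsia, Peptococcus-rc4-4, Muribaculum and Acetatifactor were higher. Of the 7, 5 kept their call when any 1 mouse was left out, and Muribaculum and Acetatifactor did not (highest adjusted p = 0.0611 for both). The exact test called 7 of 50 genera (14.0%), 6 higher and 1 lower by percents and, as centred log ratios, 4 higher and 4 lower. It called none at -2 dpi (0.0%), where 5 had an unadjusted p under 0.05. In 5 of 65 genera (7.69%) the groups did not overlap at 19 dpi, and in none of 65 (0.0%) at -2 dpi. These genera are Lactobacillus, Akkermansia, Romboutsia, Clostridium_sensu_stricto_1 and Acutalibacter. Without CFA mouse 543, 544, 545 or 547 no genus passed the exact test after adjustment, and without any other mouse 5 to 9 did. Romboutsia and Akkermansia were at 0 in every CFA mouse, so leaving out a CFA mouse left their difference as it was. For these 2 genera only the set of regroupings changed, since the groups were then of unequal size. That is so for any CFA mouse left out, and their adjusted p also depends on the p-values of the other genera. These losses do not show that those 2 genera rest on 1 CFA mouse.

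For the change from -2 to 19 dpi edgeR called 9 of 65 genera (13.8%), and the exact test none of 50 (0.0%), although 12 had an unadjusted p under 0.05. With each mouse as a block edgeR called 2 genera, Romboutsia (adjusted p = 9.07e-05) and Clostridium_sensu_stricto_1, and Lactobacillus did not pass (adjusted p = 0.0986). As the family Lactobacillaceae the same counts did pass with the block, among 23 features in place of 65. Of the 9 genera called without the block, Blautia, Ruminococcus-DTU089, Erysipelatoclostridium-Clostridium XVIII and Phocea/Angelakisella were held by 1 or 2 mice at 19 dpi, at no more than 0.765%. Ruminiclostridium, a cellulose degrader, reached higher percents. It was held by 4 EAE mice at 19 dpi, with a median of 3.27 and a highest value of 7.84%, by 1 CFA mouse at 0.0982%, and by no EAE mouse before (edgeR adjusted p = 0.012 for the change, 0.354 with the block).

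**Figure D3:**
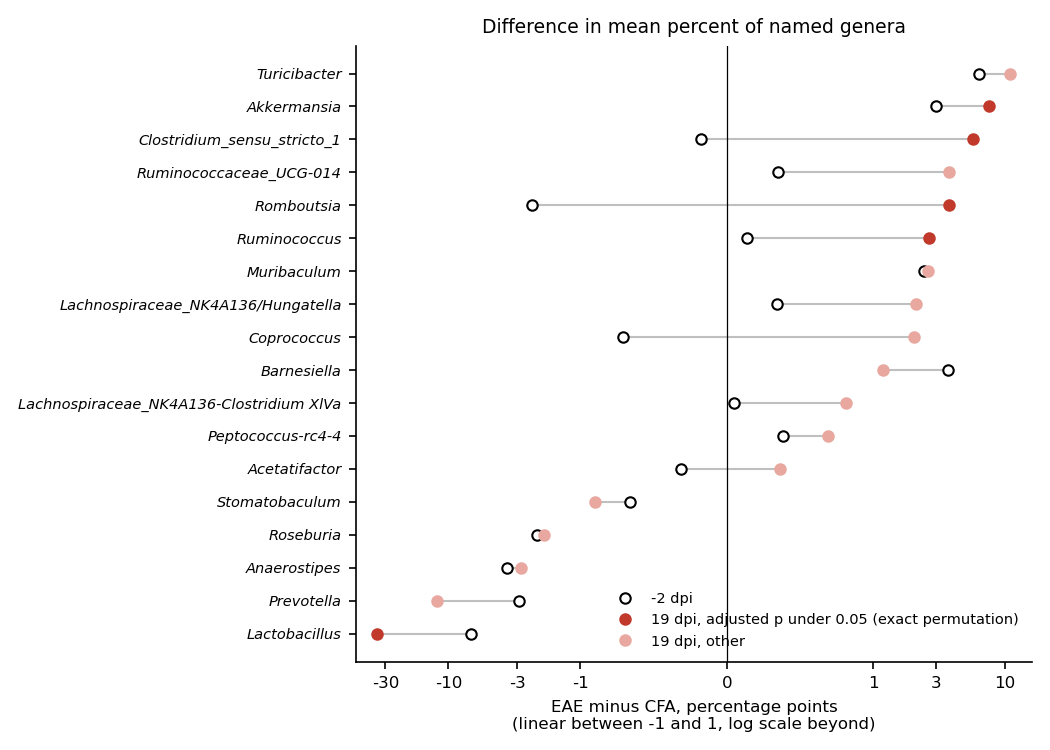
Difference in mean percent, EAE minus CFA, of 18 genera at -2 dpi (open) and 19 dpi (filled, dark where the exact permutation test passed), on an axis that is linear between -1 and 1 point and logarithmic beyond. Romboutsia and Clostridium_sensu_stricto_1 cross 0 between the days, while Anaerostipes, Roseburia and Muribaculum lie on the same side of 0 at both days.

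Some genera were found in different numbers of EAE and CFA mice at both days. Of these only Akkermansia and Peptococcus-rc4-4 were called by edgeR at both. Anaerostipes, a butyrate producer, was in all 6 CFA mice at 19 dpi, at 3.58, 4.53 and 5.79%, and in 2 EAE mice. At -2 dpi it was again in all 6 CFA mice, at 1.97, 4.52 and 5.71%, and in 1 EAE mouse, 550, at 3.92%. The EAE mean lay 2.83 points below that of CFA mice at 19 dpi, with p = 0.0541 by the exact permutation test and 0.202 after adjustment. At -2 dpi it lay 3.62 points below, with p = 0.00649 by the exact permutation test and 0.271 after adjustment. Muribaculum, a Bacteroidetes fermenter, was in 3 EAE mice at 19 dpi and 2 at -2 dpi and in no CFA mouse at either day, with differences of 2.59 and 2.44 points (edgeR adjusted p = 0.029 and 0.0603). Peptococcus-rc4-4, an anaerobic Clostridium relative, was in 4 EAE mice at 19 dpi and 3 before and in no CFA mouse, and edgeR called it at both days (adjusted p = 0.0102 and 0.0332). Its family Peptococcaceae and the family Muribaculaceae were the remaining ones called higher at 19 dpi by edgeR, at least 112-fold and at least 420-fold against the floor. Neither family passed the exact permutation test at 19 dpi (adjusted p = 0.147 and 0.238). Among naïve mice Peptococcaceae were in 4 at 19 dpi and 3 at -2 dpi, Muribaculaceae in 0 and 1, and Anaerostipes in 2 and 0. Roseburia, a butyrate producer, averaged 1.27% ± 1.45 in EAE and 3.15% ± 2.26 in CFA mice at 19 dpi, and 2.34% ± 2.36 and 4.48% ± 1.25 before (SD, n = 6 each). It did not pass at either day (exact permutation test, adjusted p = 0.303 and 0.595).

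Within the Lachnospiraceae the genera varied. Acetatifactor, a genus first grown from the mouse gut, was in 3 EAE mice at 19 dpi, at up to 1.10%, and in no CFA mouse. It was in 1 EAE and 2 CFA mice before and in all 6 naïve mice at 19 dpi. edgeR called it at 19 dpi (adjusted p = 0.029), and the exact permutation test did not (adjusted p = 0.341). Coprococcus, a butyrate producer, had 0, 1.75 and 5.37% in EAE and 0, 0.282 and 1.15% in CFA mice at 19 dpi and did not pass (exact permutation test, adjusted p = 0.135). Lachnospiraceae_NK4A136/Hungatella had 1.97, 3.07 and 5.11% against 0, 0.700 and 3.15% (exact permutation test, adjusted p = 0.118). Lachnospiraceae_NK4A136-Clostridium XlVa lay at about the same median in both groups, with 3.84% in EAE and 3.91% in CFA mice. Barnesiella, in the Bacteroidales, was in 2 EAE and 3 CFA mice at 19 dpi, at up to 12.3 and 10.6%.

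The families called lower in EAE by edgeR beside Lactobacillaceae were rare. Clostridiales_vadinBB60 was in 3 CFA mice, with a highest value of 0.291%, and Mogibacteriaceae/Anaerovoracaceae in 1, mouse 546, at 0.369%. Both were in no EAE mouse at 19 dpi, and both had an edgeR adjusted p of 0.034. Neither passed the exact permutation test at 19 dpi, where Clostridiales_vadinBB60 had an adjusted p of 0.238. Without CFA mouse 546 Mogibacteriaceae/Anaerovoracaceae was at 0 in both groups. Of the 7 families called by edgeR, 4 kept their call without any 1 mouse.

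Grouped by what the genera are known to do, the lists chosen for this comparison moved unevenly. They were chosen with earlier results of these data known, so their counts are a description. Over all 65 genera tested 10.8% were called at 19 dpi, and 33 had a higher and 21 a lower mean in EAE. The median difference, taken over genera from their differences in mean percent, was 0.0132 points. No test of a list against these shares was made. Of the 7 tested butyrate producers edgeR called none at 19 dpi, 3 had a higher and 4 a lower mean in EAE, and the median difference was -0.0401 points. Their summed percent was 0, 7.22 and 9.65% in EAE and 6.62, 7.92 and 10.7% in CFA mice at 19 dpi, against 0.878, 2.88 and 10.8% and 6.28, 11.1 and 12.2% at -2 dpi. The 3 plant fibre degraders, Ruminococcus, Ruminiclostridium and Ruminiclostridium_C-Clostridium IV, summed to 3.47, 7.54 and 13.2% in EAE and 0.562, 1.66 and 3.14% in CFA mice at 19 dpi, with no overlap. Taken genus by genus and not on this sum, their median difference was 2.66 points. edgeR called none of the 3 at 19 dpi. Before immunization they summed to at most 1.57% in EAE and 1.75% in CFA mice.

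The 3 wall-less Mollicutes genera held 0, 0.736 and 2.07% in EAE and 0, 0.238 and 1.69% in CFA mice at 19 dpi, and edgeR called none. Of 21 tested Lachnospiraceae genera 1 was called higher and 1 lower, a share near that over all genera, and their median difference was 0. Of 18 tested Ruminococcaceae genera none was called by edgeR, 10 had a higher and 6 a lower mean in EAE, a split near that over all genera, and the median difference was 0.0272 points. Of 4 tested Erysipelotrichaceae genera none was called. Eukaryotic sequences, which can be food or reagent, were at 0 in all 12 mice of 19 dpi, and Pseudomonas E was not tested.

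Below the level of genera, edgeR called 30 of 202 merged variants at 19 dpi (14.9%), 1 of 202 at -2 dpi (0.495%) and 14 of 202 for the change (6.93%). On counts simulated with the median spread of these variants for every taxon, most calls of edgeR were false. The spread was set the same for all, so this does not give the share of false calls in these data. edgeR's calls at this level are therefore given beside an exact permutation test of percents that was added after the data were seen. It called 7 of 95 variants at 19 dpi (7.37%), none of 95 at -2 dpi (0.0%) and none for the change (0.0%). These 7 are also the variants whose groups did not overlap at 19 dpi, 7 of 202 (3.47%), against 1 of 202 (0.495%) at -2 dpi, Lachnospiraceae_NK4A136/Hungatella_NA variant 1, which was higher in EAE and was named after its values were seen. Groups that do not overlap give the smallest p this test can reach, so the match at 19 dpi is not a second observation. The variant called by edgeR at -2 dpi was Akkermansia muciniphila variant 1. The adjusted p of each of the 7 was 0.0294 by the exact test. Lactobacillus johnsonii variant 1 and Lachnospiraceae_NK4A136_NA variant 2 were lower in EAE mice. Akkermansia muciniphila variant 1, Clostridium celatum/disporicum variant 1, Romboutsia timonensis variant 1, Acutalibacter muris variant 2 and Oscillibacter valericigenes variant 1 were higher.

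Acutalibacter muris, a Ruminococcaceae species of the mouse gut, was held as different variants in the 2 groups at 19 dpi. Variant 2 was in all 6 EAE mice at 19 dpi, at 0.660, 1.47 and 2.47%, and in no CFA mouse at either day and no EAE mouse before. Variant 1 was in 3 EAE mice at -2 dpi and in no EAE mouse at 19 dpi, and it was in all 6 CFA mice at -2 dpi and 3 at 19 dpi. The sequences between the primers are 402 bases long and differ at 7 of them. Under this name EAE mice held variant 1 before, in 3 of 6, and variant 2 after, and CFA mice held variant 1 at both days. That both variants are 1 species rests on the deposited names and was not tested. No test of the exchange was made. Among naïve mice variant 2 was in 2 of 6 at -2 dpi and in none at 19 dpi. Acutalibacter muris variant 1 and Oscillibacter valericigenes variant 1 were named after their values were seen.

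Oscillibacter valericigenes variant 1, a relative of the Ruminococcaceae that makes valerate, was in all 6 EAE mice at 19 dpi, at 0.527, 1.01 and 2.30%, and in no CFA mouse. At -2 dpi it was in 1 EAE and 3 CFA mice, at up to 0.907%. Its genus as a whole had 0.620, 2.08 and 2.96% in EAE and 0, 0.587 and 2.07% in CFA mice, which overlapped (exact permutation test, adjusted p = 0.279). Lachnospiraceae_NK4A136_NA variant 2 was in all 6 CFA mice at 19 dpi, at 1.02, 1.86 and 4.27%, and in no EAE mouse. Before immunization it was in 5 CFA mice and in EAE mouse 550, at 0.765%, and no naïve mouse held it at either day. All counts named Stomatobaculum, a genus that edgeR called lower in EAE (adjusted p = 0.00388), came from primer copies of this variant, so the 2 calls are 1 observation.

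Other variants called by edgeR were less even across mice. Ruminiclostridium_NA variant 1 was in 4 EAE mice at 19 dpi, with a median of 3.15 and a highest value of 7.39%, and in no EAE, CFA or naïve mouse otherwise at either day. [Lachno]-Clostridium aldenense variant 2 was in 4 EAE mice at up to 3.36% and in no other EAE or CFA mouse. Coprococcus_NA variant 1, from a genus of butyrate producers, was in 5 EAE mice at up to 5.37%, in no CFA mouse at 19 dpi, and in 2 EAE and 1 CFA mice before. Muribaculum intestinale variant 1 was in 3 EAE mice at 19 dpi and 2 before. All 4 had adjusted p-values of 0.144 or more by the exact test. Roseburia 14-2 variant 2 was in 3 CFA mice at up to 2.72% and in no EAE mouse at 19 dpi, and in 5 CFA mice and 1 EAE mouse before. Ruminococcaceae_UCG-014_NA variant 7 was in 2 CFA mice at each day and in no EAE mouse. The calls of Prevotella_NA variants 2, 3 and 4 rest on CFA mouse 546, at 4.87, 2.49 and 2.53%, and that of Lachnospiraceae_NK4A136_NA variant 7 on CFA mouse 545, at 2.54%. Before immunization Prevotella_NA variants 2, 3 and 4 were in EAE mouse 550 alone.

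**Figure D4:**
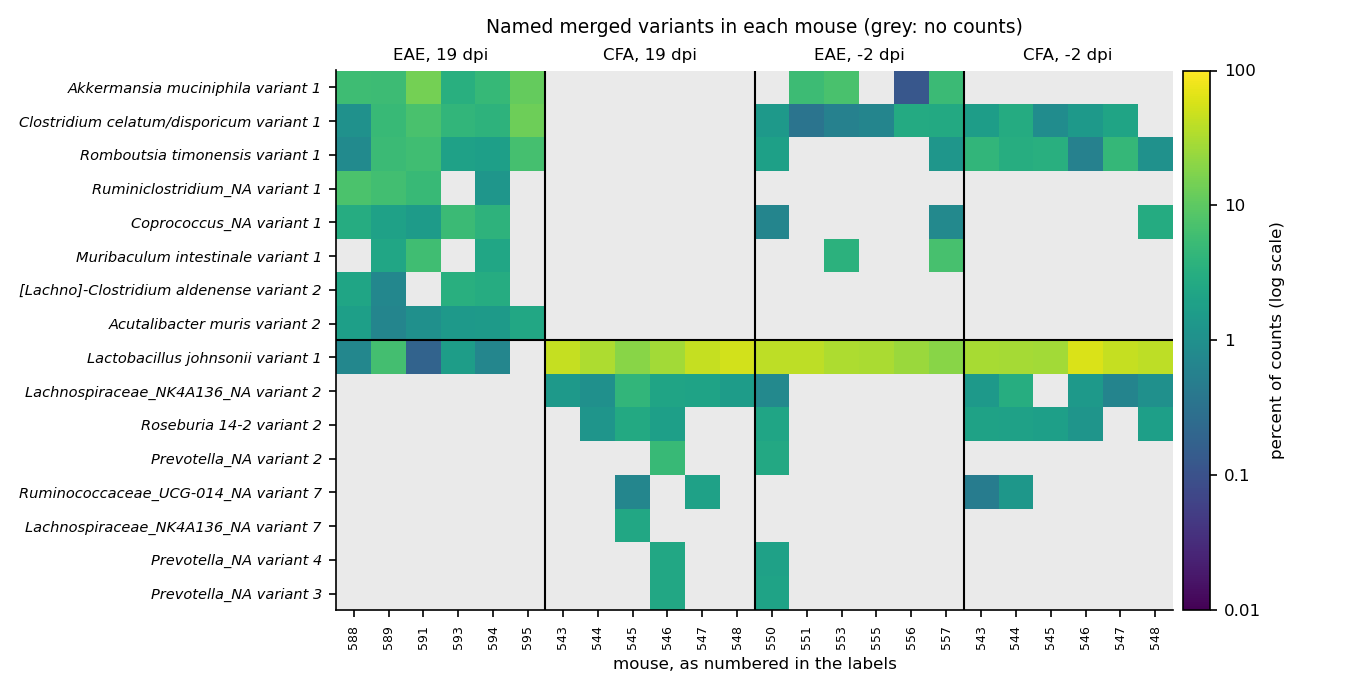
Percent of counts (colour, log scale; grey for no counts) of 16 merged variants called by edgeR at 19 dpi, 8 higher and 8 lower in EAE (above and below the line), in each of the 24 samples of the 12 mice. Akkermansia muciniphila variant 1, Clostridium celatum/disporicum variant 1, Romboutsia timonensis variant 1 and Acutalibacter muris variant 2 fill all 6 EAE columns at 19 dpi and no CFA column.

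The ASVs as deposited gave another split of directions. edgeR called 36 of 648 at 19 dpi (5.56%), 5 higher and 31 lower in EAE, where the merged variants gave 18 higher and 12 lower. The ASV split also moved with the scale, to 13 higher and 29 lower on total counts and to 109 higher and 88 lower with DESeq2. At -2 dpi it called none of 648 (0.0%), where 239 had an unadjusted p under 0.05 and DESeq2 called 156, and for the change it called 83 of 648 (12.8%). An abundant bacterium such as Lactobacillus johnsonii variant 1 counts once as a merged variant and up to 28 times as ASVs.

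Alpha diversity, the number and evenness of the types within a mouse, passed no test after adjustment. Its direction turned with the merging of primer copies and, for some measures, without EAE mouse 595. On the ASVs as deposited the Shannon index was 2.88, 3.96 and 4.64 in EAE and 3.78, 4.27 and 4.40 in CFA mice at 19 dpi, with a mean difference of -0.22 (exact permutation test, adjusted p = 0.658). On merged variants it was 1.99, 3.01 and 3.4 in EAE and 1.67, 2.10 and 2.84 in CFA mice, with a mean difference of 0.70 (exact permutation test, p = 0.0368, adjusted p = 0.11 over 6 comparisons). The groups overlapped on both scales. Before immunization the difference was -0.19 on ASVs and -5.03e-04 on merged variants. The lowest EAE mouse on both scales at 19 dpi was 595, with the lowest total. On ASVs as deposited, leaving it out moved the Shannon difference from -0.22 to -0.01. The inverse Simpson difference went from -5.82 to 0.63, and that in the number of ASVs from -7.67 to 3.2. The inverse Simpson index, which weights abundant types, had a mean of 10.6 ± 3.96 in EAE and 5.17 ± 2.05 in CFA mice on merged variants (SD, n = 6 each; exact permutation test, p = 0.0173, adjusted p = 0.104).

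**Figure D5:**
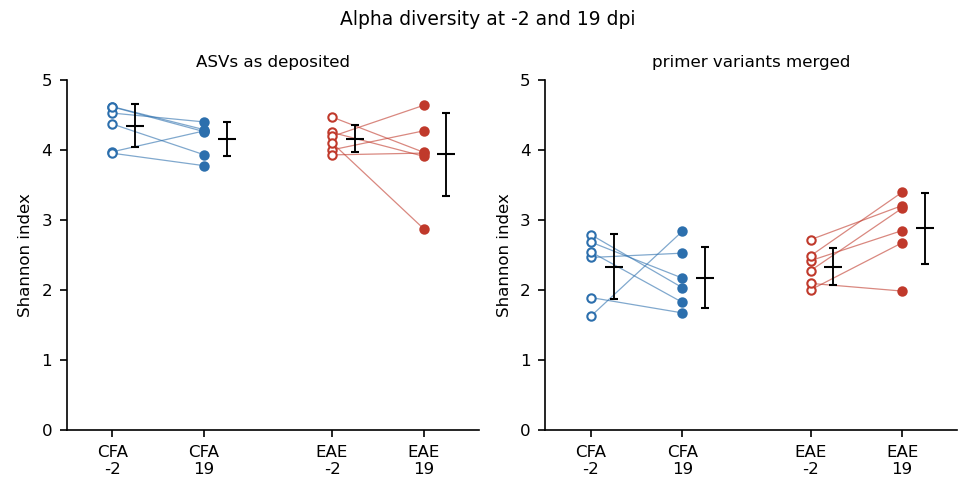
Shannon index of each mouse (points) in CFA and EAE at -2 dpi (open) and 19 dpi (filled), from the ASVs as deposited (left) and from merged variants (right), with lines joining the samples of a mouse and black bars for the mean ± SD, n = 6. The mean of EAE minus that of CFA at 19 dpi is -0.22 on the left and 0.70 on the right.

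The mice differed in disease as labelled. The clinical score at 19 dpi was 0, 2.75 and 4 in EAE mice and 0 in all 6 CFA mice, with a mean difference of 2.58 (exact permutation test, adjusted p = 0.0152). EAE mouse 591 had a score of 0 on that day, but at 15.0 g it had the lowest weight of the EAE mice. Its Lactobacillus percent was 0.185. Body weight was 15.0, 15.55 and 16.7 g in EAE and 18.4, 19.05 and 19.8 g in CFA mice, a difference of -3.37 g with no overlap (exact permutation test, adjusted p = 0.00433). No weight is given at -2 dpi.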

How the data were processed

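The V3-V4 16S amplicon counts per ASV and sample were deposited by the authors, who truncated, filtered, denoised and merged the reads and removed chimeras with DADA2. Names of taxa were curated by hand by the authors. Primers had been kept. The clinical score and body weight were deposited per mouse and day, and the score's scale is not given in the sources used here. Of 2295 ASVs, 2274 held both primers and were summed to 507 variants. Primer copies of 1 sequence carried several genus names in 31 variants, and 5.09% of counts had another genus name than the leading copy. ASVs were summed to 26 families and 73 genera.

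Taxa with counts in at least 3 samples of the fit were tested with edgeR 4.0.16 (R 4.3.3) in 1 quasi-likelihood fit over 15 groups of treatment and day, with TMMwsp factors from genus counts, Benjamini-Hochberg adjustment over all taxa of a level and a threshold of 0.05. TMMwsp shifted all taxa by -0.87 (19 dpi) and -0.53 (-2 dpi) on the log2 scale against total counts. Percents, diversity, distance, weight and score were tested with exact permutation tests over 924 regroupings (Python 3.11.15), two-sided except for distance. DESeq2 1.42.0 was an alternative. Floors of 3 counts per library (at most 0.0196% in any EAE or CFA mouse of 19 dpi) cover counting error only.

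The scripts were tested on simulated data. At a low spread nearly all changed taxa were recovered. At the median spread of these genera, set the same for every taxon, none was. At the median spread of the merged variants, set in the same way, most calls were false. These settings do not give the share of false calls in the data.

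Named taxa were the families called by edgeR at 19 dpi and the 5 most abundant, the genera called by edgeR and listed genera of at least 1%, and the 8 most abundant merged variants called in each direction. Other taxa are marked in the text as named after their values were seen, or were called for the change. Taxa and lists were chosen with earlier results of these data known. CFA mouse numbers come from the labels and EAE numbers from the deposited sample table, since the labels number EAE mice differently at the 2 days. These numbers were taken to mark the same animals and so to pair the samples. Deviations of genus values from their group mean correlated from -0.31 to 0.347 within pairs, 4 of 12 pairs were over 0.1, and 1 EAE and 0 CFA mice correlated best with their own number. Sequences of bacteria are not printed.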

Additional observations from a re-analysis of the deposited data

Results flagged for a closer look

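Of 100 groups of 6 mice checked for a value far from the rest, 10 had one. For normally spread values chance gives about 1 in 20 groups. A taxon held by only 1 mouse of a group is always flagged, so the 10 cannot be set against that rate. At 19 dpi the flagged values were EAE mouse 589 for Lactobacillaceae, at 6.34% against 1.70% in the next, and EAE mouse 588 for Ruminococcaceae, at 31.5% against 19.5%. Among CFA mice of that day they were mouse 546 for Clostridiales_vadinBB60 (0.291%, next 0.0291%) and Mogibacteriaceae/Anaerovoracaceae (0.369%, others 0), mouse 548 for Barnesiella (10.6%, next 2.17%) and mouse 543 for Clostridium_sensu_stricto_1 (0.125%, others 0). At -2 dpi they were EAE mouse 553 for Mogibacteriaceae/Anaerovoracaceae (0.126%) and Acetatifactor (0.451%), and EAE mouse 550 for Stomatobaculum (0.765%) and Anaerostipes (3.92%), with the other 5 at 0.

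For several taxa edgeR's test of the change found that the EAE against CFA difference was not the same at -2 and 19 dpi. The values are fitted log2 changes. Where a group was at 0 they depend on the prior count and bound nothing. Among families they were -4.67 for Lactobacillaceae and 16.45 for Peptostreptococcaceae (adjusted p = 0.00285 for both). Among genera they were -4.67 for Lactobacillus, 16.45 for Romboutsia, 13.34 for Acetatifactor, 16.10 for Blautia and 17.83 for Erysipelatoclostridium-Clostridium XVIII. Phocea/Angelakisella had 17.26, Ruminiclostridium 15.78, Ruminococcus-DTU089 -15.39 and Stomatobaculum -9.68 (adjusted p from 0.00729 to 0.024 over the 9 genera). Among named merged variants they were 14.73 for Clostridium celatum/disporicum variant 1, 14.96 for Coprococcus_NA variant 1 and 16.45 for Romboutsia timonensis variant 1. Prevotella_NA variants 2, 3 and 4 had -23.55, -22.26 and -22.18, each resting on 1 CFA mouse at 19 dpi and EAE mouse 550 at -2 dpi. With each mouse as a block the adjusted p of the Prevotella_NA variants was 0.761 or more.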

How the results depend on the processing

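With each mouse as a replicate block, edgeR called a change in 2 genera in place of 9 and in 2 merged variants in place of 14, and in 2 families as before. The 2 variants were Clostridium celatum/disporicum variant 1 (adjusted p = 0.00401) and Romboutsia timonensis variant 1 (adjusted p = 0.000857). It was run for these 3 comparisons.

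DESeq2 called more taxa: 17 genera at 19 dpi, 73 merged variants and 197 ASVs. At -2 dpi it called 4 families, 12 genera, 50 variants and 156 ASVs, and for the change 5 families, 16 genera and 48 variants. With no filter edgeR called 11 variants and 0 ASVs at 19 dpi, and 10 ASVs for the change. With only the 4 groups in the fit it called 71 ASVs, and 30 for the change. On total counts 3 ASVs were called at -2 dpi, and on thinned counts 1 family. The exact test of percents called 7 variants at 19 dpi, 0 at -2 dpi and 0 for the change. On medians, where the smallest p that can be reached is larger than for means, 0 families, 0 genera and, for the change, 0 families passed. The median score differed by 2.75 (exact permutation test, adjusted p = 0.106). As centred log ratios 3 genera passed for the change. With primer copies merged the Shannon index differed by 0.70, the inverse Simpson index by 5.40 and the number of types by 8.17, all opposite in sign to ASVs as deposited. The distance at -2 dpi explained 19.2% with merged variants, 17.6% by Aitchison distance, 17.7% by Jaccard distance and, without EAE mouse 550 (chosen after seeing the data), 25.5%.

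These directions turned. On total counts the log2 fold change was 0.029 for Lachnospiraceae, 0.89 for Erysipelotrichaceae and Turicibacter, and 0.26 for Lachnospiraceae_NK4A136-Clostridium XlVa. As a centred log ratio it was -1.80 for Lachnospiraceae (exact permutation test, adjusted p = 0.0123), -0.12 for Ruminococcaceae, -1.96 for Barnesiella and -2.05 for Lachnospiraceae_NK4A136-Clostridium XlVa. Barnesiella had -0.71 with DESeq2, -0.46 with 4 groups, -0.45 thinned and -1.05 points on medians, and Lachnospiraceae_NK4A136-Clostridium XlVa -0.072 points on medians. The cause was not tested.

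Leaving out 1 mouse at a time gave 4 to 7 families (4 without CFA mouse 546 or EAE mouse 591), 5 to 7 genera and 9 to 29 variants at 19 dpi (9 without CFA mouse 544 or 546). For the change it gave 8 to 10 genera and 2 to 15 variants. By percents it gave 5 to 7 families and 0 to 9 genera, and for the change 4 to 6 and 0 to 7. These counts by percents also move because groups of unequal size have another set of regroupings. On ASVs as deposited the Shannon difference ran from -0.36 to -0.01, inverse Simpson from -13.5 to 0.63 and the number of ASVs from -19.6 to 3.2. The highest value of each was that without EAE mouse 595. The distance ran from 48.4 to 55.8%, weight from -3.57 to -3.22 g and score from 2.3 to 3.1. The log2 fold change ran from -0.48 to 0.12 for Erysipelotrichaceae and for Turicibacter (without CFA mice 546 and 543) and from -0.85 to 0.98 for Barnesiella (without EAE mouse 588 and CFA mouse 548). In points Barnesiella ran from -0.53 to 2.82 without the same mice, Lachnospiraceae from -2.61 to 3.69 and Lachnospiraceae_NK4A136-Clostridium XlVa from -0.37 to 1.81 (both without EAE mice 594 and 595). Without EAE mouse 595, 5 of 7 families, 7 of 7 genera and 17 of 30 variants kept their call. With counts thinned to 15279 a sample and only the 4 groups in the fit, 7 of 7 families, 6 of 7 genera and 26 of 30 variants kept their call, as many as without thinning in that fit.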
